A study of Mus musculus with 30 samples.

Results

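The 9 organic anion and cation transporters Slc22a2, Slc22a4, Slc22a5, Slc22a6, Slc22a7, Slc22a8, Slc22a12, Slc47a1 and Slco4c1 were followed in 16 mouse kidneys. They were chosen by name as transporters of this kind, and the choice also rested on a measured value: the set was selected on the rise of Slc22a8 on high-fat diet (HFD) in knockout kidneys. All 9 were found among the 41128 genes of the kidney count table, and all 9 were among the 15034 genes with enough counts to be tested. Each of the 4 groups held 4 male mice, 1 library per mouse: WT or KO, on standard-fat diet (SFD) or on HFD. KO mice carried floxed Egfr alleles, so that the gene for the EGF receptor could be deleted by a tamoxifen-inducible Cre recombinase driven by the Smmhc (Myh11) promoter of vascular smooth muscle cells (VSMC). WT mice carried the same Cre, which lies on the Y chromosome, but no loxP sites. Every mouse, WT or KO, received tamoxifen at 1 mg per day for 5 days, HFD began 7 days later at 6 weeks of age, and the diets lasted 18 weeks. The strain background is labelled C57Bl6J. Kidney tissue of mixed cell types was sequenced, without a statement of the part sampled, so that fewer cells of a type and less RNA per cell cannot be told apart. The 16 kidney libraries came from separate mice, 3 of which also gave 1 of the aorta libraries.

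These proteins move charged drugs, toxins and metabolites through the cells of the proximal tubule. Slc22a6 (OAT1) and Slc22a8 (OAT3) take up organic anions from the blood in exchange for dicarboxylates, Slc22a2 (OCT2) takes up organic cations, and Slc47a1 (MATE1) passes cations on into the urine. Slc22a12 (URAT1) reabsorbs urate from the urine, Slc22a5 (OCTN2) reabsorbs carnitine, and Slc22a4 (OCTN1) carries ergothioneine. Slc22a7 (OAT2) and Slco4c1 (OATP4C1) are further carriers of organic anions.

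Slc22a8 and Slc22a6 are neighbours on chromosome 19. In GENCODE vM21 on GRCm38/mm10, Slc22a8 spans chr19:8591254-8611835 and Slc22a6 spans chr19:8618039-8628299, both on the plus strand, with 6203 bases between them. Slc22a12 lies on the same chromosome, at chr19:6535845-6543032 on the minus strand. Promoters of 7 of the 9 members were matched by symbol in RefSeq on GRCm38.p6, each with 250 bases before and 50 bases after the start. The promoters of Slc22a8 (chr19:8592932-8593231) and Slc22a6 (chr19:8617746-8618045) are printed because these neighbours are the pair whose diet effects are compared most closely here. Capitals mark the letters GTTAAT, the core of the motif of HNF1 transcription factors, which are known regulators of proximal tubule transporters.
Slc22a8: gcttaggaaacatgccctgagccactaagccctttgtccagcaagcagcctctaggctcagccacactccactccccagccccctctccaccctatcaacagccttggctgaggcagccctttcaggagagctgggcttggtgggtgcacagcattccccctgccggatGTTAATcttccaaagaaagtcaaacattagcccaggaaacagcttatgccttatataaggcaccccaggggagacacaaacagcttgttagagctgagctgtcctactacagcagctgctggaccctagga
Slc22a6: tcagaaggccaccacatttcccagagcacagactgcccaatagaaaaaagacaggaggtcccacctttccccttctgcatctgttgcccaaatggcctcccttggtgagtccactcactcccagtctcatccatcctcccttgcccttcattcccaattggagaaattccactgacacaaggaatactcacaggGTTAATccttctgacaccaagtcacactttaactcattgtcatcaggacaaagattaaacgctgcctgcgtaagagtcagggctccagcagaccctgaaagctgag
The capitals begin 81 bases before the start of Slc22a8 and 56 bases before that of Slc22a6. Searched on both strands, GTTAAT was present in 7.1% of the 32851 promoters of the table and, among the 7 members with a promoter, in these 2. The letters TATAAA and AGGTCA, present in 13.6% and 16.3% of all promoters, were in none of the 7. A match of letters describes the window and is not a binding site.

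The Slc22a8 start used by RefSeq lies inside the longer GENCODE span of the gene. Slc22a12 shared 682 exon bases with Nrxn2 on the opposite strand, and the strand setting of the counting is not given in the sources used here, so reads of the pair cannot be told apart over that stretch. Slc22a5 and Slc22a4 are separated by 91462 bases on chromosome 11, Slc47a1 lies on the same chromosome, Slc22a2 and Slc22a7 are on chromosome 17, and Slco4c1 is on chromosome 1.

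Egfr, the gene targeted in the KO mice, was read in every kidney first. Its level in FPM (counts of fragments scaled to a common library size with the TMM factor) was 58.4, 39.1, 50.9 and 53.0 in the WT-SFD kidneys and 52.7, 46.7, 60.8 and 54.0 in the KO-SFD kidneys. It was 47.5, 36.9, 56.6 and 42.7 in the WT-HFD kidneys and 42.9, 45.5, 40.5 and 43.5 in the KO-HFD kidneys. The genotypes overlapped on both diets, with a log2 fold change of 0.09 on SFD and of −0.09 on HFD for KO against WT. Cre acts in smooth muscle cells only, and counts covered all exons of Egfr in all cells of the tissue, so Egfr in kidney tissue gives no check of the genotype labels.

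Per length of the exons, the 9 transporters covered a wide range. Slc22a12 was the most abundant, with a mean of 489 FPKM ± 131 (SD, n = 16; FPM per kilobase of exon), followed by Slc22a6 with 268 ± 58.9 FPKM and Slc47a1 with 223 ± 34.2 FPKM. Slc22a2 had 152 ± 23.1 FPKM, Slc22a8 138 ± 57.6 FPKM, Slc22a7 95.8 ± 39.1 FPKM and Slc22a5 88.7 ± 15.2 FPKM. Slc22a4 followed with 41.4 ± 7.58 FPKM, and Slco4c1 was last with 5.99 ± 1.56 FPKM. The urate carrier Slc22a12 lay above Slc22a6 in all 16 kidneys, and the apical cation exporter Slc47a1 lay above Slc22a2, the cation carrier that feeds it, in all 16. The middle of the order differed by diet: Slc22a2 exceeded Slc22a8 in 8 of 8 SFD kidneys and in 1 of 8 HFD kidneys, and Slc22a8 exceeded Slc22a7 in 1 of 8 SFD kidneys and in 8 of 8 HFD kidneys. The KO libraries of Slc22a8 were used in the selection, so its place is a description. Slc22a7 exceeded Slc22a5 in 8 of 8 SFD and 3 of 8 HFD kidneys, and Slc22a6 exceeded Slc47a1 in 8 of 8 SFD and 4 of 8 HFD kidneys. The steps from Slc22a5 to Slc22a4 and from Slc22a4 to Slco4c1 held in all 16. The lowest raw count of any member was 223, for Slco4c1, and the highest was 37404, for Slc22a12.

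**Figure D1:**
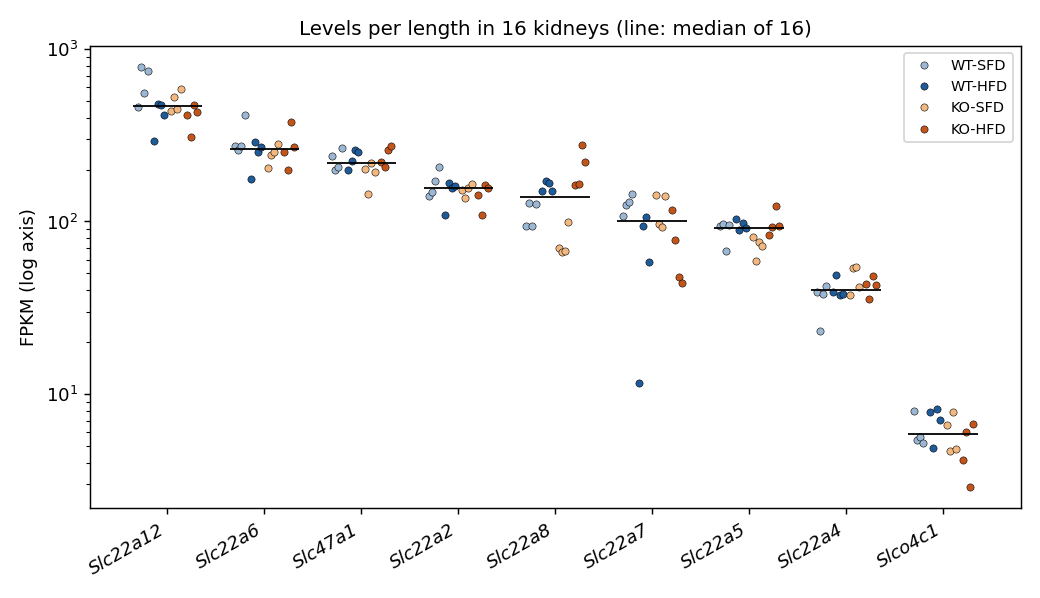
Level per length (FPKM, log axis) of the 9 transporters in the 16 kidneys, coloured by genotype and diet; each point is 1 mouse and each line the median of 16. The medians run from 466 FPKM for Slc22a12 to 5.83 FPKM for Slco4c1, and the point clouds of Slc22a2, Slc22a8, Slc22a7 and Slc22a5 overlap.

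In the aorta, a vessel rich in the smooth muscle cells that the Cre targets, most members were at or near 0. Slc22a6 and Slco4c1 had no count in any of 14 aortae, and Slc22a7, Slc22a8 and Slc22a12 had at most 2 counts in any of them. Slc47a1 had 1 to 14 counts, Slc22a4 1 to 43 and Slc22a2 9 to 55. The carnitine carrier Slc22a5 was the most abundant of the 9 there, with 92 to 191 counts, a median of 13.7 FPM in the aorta beside 283 FPM in the kidney. The tissues were sequenced at different sites and were not tested against each other.

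Slc22a8, the basolateral organic anion uptake carrier, was higher in every HFD mouse than in any SFD mouse of the same genotype. In WT it was 370, 503, 370 and 491 FPM on SFD and 588, 673, 651 and 589 FPM on HFD, so the diets did not overlap. The log2 fold change in WT, whose libraries were not named in the selection, was 0.53 ± 0.18 (SE), an estimate of 1.44-fold. With an unadjusted p of 0.00896 and an adjusted p of 0.312 (edgeR quasi-likelihood test, Benjamini-Hochberg over 15034 genes, n = 4 per group), this difference did not pass the test.

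In KO kidneys Slc22a8 was 275, 259, 265 and 391 FPM on SFD and 636, 641, 1082 and 864 FPM on HFD. The lowest HFD kidney was thus 636 FPM and the highest SFD kidney 391 FPM. The log2 fold change was 1.44 ± 0.18 (SE), or 2.71-fold. This contrast chose the set and is therefore given as a description. The same holds for the genotype differences of Slc22a8, which share those libraries: KO against WT was −0.54 ± 0.18 on SFD and 0.37 ± 0.18 on HFD, and the diet effect in KO exceeded that in WT by 0.91 ± 0.25 on the log2 scale. Without the KO-HFD kidney at 1082 FPM, KO against WT on HFD was 0.20. The KO-SFD kidneys were the lowest group and the KO-HFD kidneys the highest, but single mice of WT and KO overlapped on either diet.

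**Figure D2:**
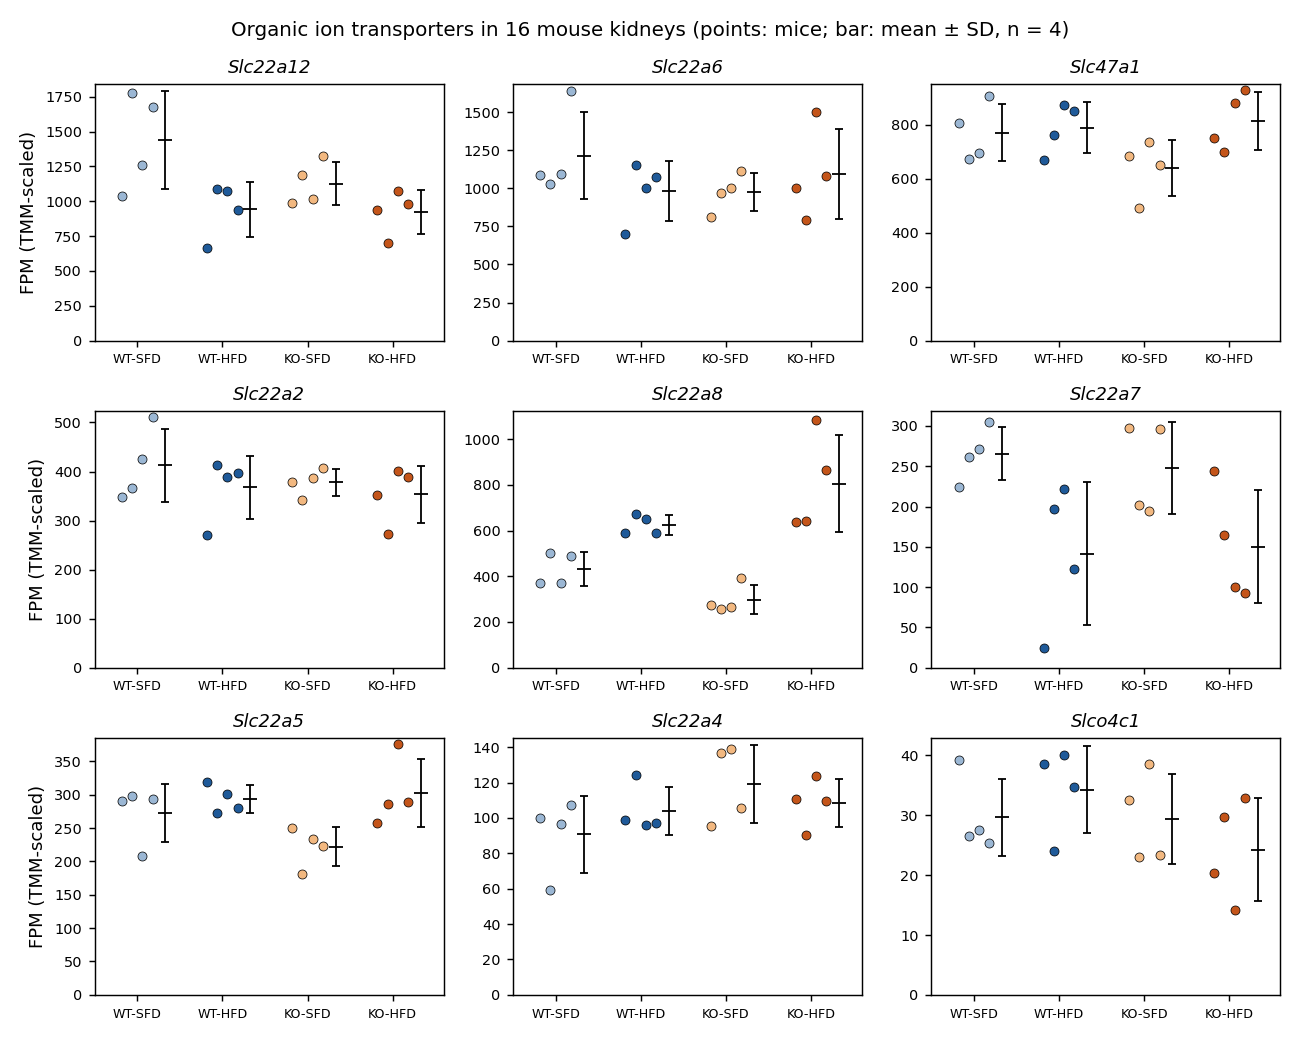
FPM of each transporter by genotype and diet; points are mice (n = 4 per group) and the bar beside them the mean ± SD. Within each genotype, every HFD mouse lies above every SFD mouse for Slc22a8, while Slc22a12 and Slc22a7 have lower means on HFD in WT and in KO.

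Its neighbour Slc22a6, which takes up a similar range of anions, did not show this pattern. In WT it was 1091, 1028, 1096 and 1642.01 FPM on SFD and 702, 1156, 1005 and 1076 FPM on HFD, and in KO it was 811, 970, 1004 and 1118 FPM on SFD and 1001, 795, 1501 and 1081 FPM on HFD. Both diets overlapped in both genotypes. The log2 fold change was −0.30 ± 0.20 in WT, with a 95% interval from −0.73 to 0.12 and an adjusted p of 0.844 (edgeR, Benjamini-Hochberg), and 0.17 ± 0.20 in KO. Single kidneys carried these values: the WT value was −0.12 without the SFD kidney at 1642.01 FPM and −0.18 without the HFD kidney at 702 FPM, and the KO value was −0.01 without the HFD kidney at 1501 FPM. The level of Slc22a8 relative to Slc22a6, both per length, was 0.373 ± 0.0858 (SD, n = 4) in WT-SFD and 0.666 ± 0.132 in WT-HFD kidneys. The lowest WT-HFD ratio was 0.557 and the highest WT-SFD ratio 0.498, so the diets did not overlap. In KO the ratio was 0.310 ± 0.0465 on SFD and 0.754 ± 0.0815 on HFD, values that rest on the Slc22a8 levels used in the selection and are given as a description.

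Slc22a7, a carrier of organic anions and of nucleotides such as cGMP, had a lower mean on HFD in both genotypes. In WT it was 225, 262, 271 and 305 FPM on SFD and 24.2, 197, 222 and 123 FPM on HFD, without overlap. In KO it was 298, 202, 194 and 296 FPM on SFD and 244, 164, 100 and 92.3 FPM on HFD, with overlap. The spread on HFD was wide, and the log2 fold change of −0.91 ± 0.45 in WT did not pass the test (adjusted p = 0.668, edgeR, Benjamini-Hochberg), with a 95% interval from −1.86 to 0.04. The KO value was −0.72 ± 0.45. The WT-HFD kidney at 24.2 FPM weighs on the WT value, which was −0.56 without that kidney. Relative to Slc22a8, per length, Slc22a7 was at a ratio of 1.16 ± 0.164 (SD, n = 4) in WT-SFD and 0.412 ± 0.245 in WT-HFD kidneys, and of 1.56 ± 0.308 in KO-SFD and 0.390 ± 0.255 in KO-HFD kidneys. In WT the lowest SFD ratio was 0.969 and the highest HFD ratio 0.635, so the diets did not overlap. The KO ratios rest on the Slc22a8 levels used in the selection and are given as a description.

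Slc22a12, the urate reabsorption carrier of the brush border, had the smallest p of the members in WT. It was 1038, 1781, 1262 and 1677 FPM in WT-SFD and 665, 1090, 1074 and 934 FPM in WT-HFD kidneys, and the lowest SFD kidney overlapped with HFD. The log2 fold change was −0.61 ± 0.19, with an unadjusted p of 0.00558 and an adjusted p of 0.246 (edgeR, Benjamini-Hochberg), so it did not pass the test. In KO it was 986, 1185, 1014 and 1323 FPM on SFD and 934, 701, 1070 and 982 FPM on HFD, a log2 fold change of −0.29 ± 0.19, which was −0.19 without the HFD kidney at 701 FPM. The order of the WT groups was the reverse of that of Slc22a8.

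The carnitine carrier Slc22a5 was close to level in WT, with 290, 298, 208 and 294 FPM on SFD and 319, 273, 301 and 280 FPM on HFD. Its log2 fold change there was 0.11 ± 0.14, with a 95% interval from −0.19 to 0.40, and was −0.0042 without the SFD kidney at 208 FPM. In KO it was 250, 181, 233 and 223 FPM on SFD and 257, 286, 375 and 290 FPM on HFD. The KO diets did not overlap, although 250 and 257 FPM were nearly equal, and the log2 fold change was 0.45 ± 0.14. For its relative Slc22a4 the log2 fold changes on HFD were 0.20 ± 0.17 in WT and −0.14 ± 0.17 in KO, with all 16 kidneys between 59.0 and 139 FPM. The WT value was 0.04 without the SFD kidney at 59.0 FPM, and leaving out 1 kidney at a time gave −0.23 to −0.05 in KO.

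The diet differences of the cation pair were small in WT. Slc22a2 had log2 fold changes of −0.17 ± 0.15 in WT and −0.10 ± 0.16 in KO, and its 95% interval in WT ran from −0.50 to 0.16. Leaving out 1 kidney at a time gave −0.24 to −0.05 for it in WT and −0.15 to −0.00063 in KO. Slc47a1 had 0.03 ± 0.14 in WT, with an interval from −0.27 to 0.34, and 0.35 ± 0.14 in KO. Slc22a2 per Slc47a1, per length, was 0.733 ± 0.105 (SD, n = 4) in WT-SFD and 0.633 ± 0.0787 in WT-HFD kidneys, and 0.818 ± 0.103 in KO-SFD and 0.591 ± 0.0503 in KO-HFD kidneys. The ratios overlapped in WT, while in KO the highest HFD ratio was 0.641 and the lowest SFD ratio 0.716. Slco4c1, the basolateral carrier of digoxin and thyroid hormones, had −0.27 ± 0.25 in KO and 0.21 ± 0.24 in WT, and the mice within a group differed by up to 2.33-fold. Leaving out 1 kidney at a time gave −0.45 to −0.08 in KO and 0.13 to 0.37 in WT.

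**Figure D3:**
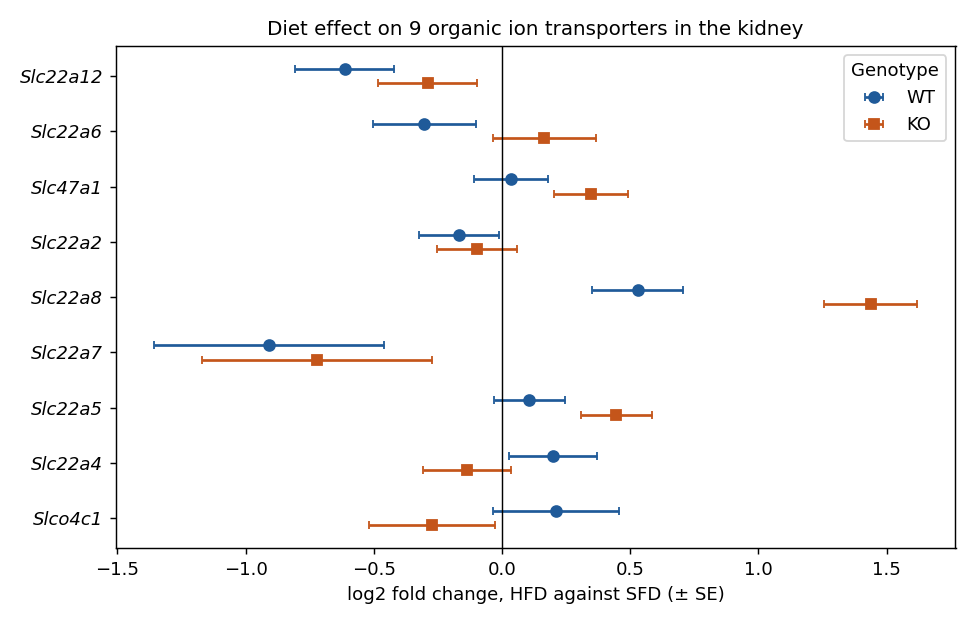
Log2 fold change of HFD against SFD (± SE) for each transporter in WT (circles) and KO (squares), from 4 kidneys per group. Slc22a8 lies to the right in both genotypes, at 0.53 in WT and 1.44 in KO, and Slc22a7 and Slc22a12 lie to the left in both.

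Over the 9 members, the WT diet comparison gave 0 calls at an adjusted p under 0.05 (edgeR, Benjamini-Hochberg) and 2 at an unadjusted p under 0.05, Slc22a8 and Slc22a12, beside 7.9% of all genes, and DESeq2 also called 0. Among all 15034 genes, 0.911% were called in WT. In WT, 1 member was higher on HFD without overlap (Slc22a8), beside 3.02% of all genes, and 1 was lower without overlap (Slc22a7), beside 1.99% of all genes. The median log2 fold change of the members was 0.03 in WT beside 0.00 for all genes, with 5 members above and 4 below 0. In KO, 1 member, Slc22a8, was called beside 2.3% of all genes. There 2 members (Slc22a5 and Slc22a8) were higher without overlap, beside 5.02% of all genes, and 0 were lower without overlap, beside 3.85% of all genes. The set was chosen in this contrast, so these KO counts are read no further.

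Between the genotypes, none of the 8 members other than Slc22a8 passed the test. For Slc22a8, whose KO libraries were used in the selection, no test is given. On SFD, 0 of the other 8 members were called by edgeR and 0 by DESeq2, beside 0.0133% of all genes, and 7 of these 8 had a lower estimate in KO, with a median log2 fold change of −0.20 beside 0.00 for all genes. The unadjusted p was under 0.05 for 2 of the 8, Slc22a4 and Slc22a5, beside 8.37% of all genes, and none of the 8 was without overlap, beside 1.9% of all genes higher and 2.09% lower without overlap. The 1 of the 8 above 0 was Slc22a4, at 100, 59.0, 96.5 and 107 FPM in WT-SFD and 95.4, 136, 139 and 106 FPM in KO-SFD kidneys, a log2 fold change of 0.39 ± 0.17 (adjusted p = 0.577, edgeR, Benjamini-Hochberg) that was 0.24 without the WT kidney at 59.0 FPM. Slc22a5 had −0.30 ± 0.14 in the other direction (adjusted p = 0.595, edgeR, Benjamini-Hochberg). Several lists read below also lay mostly under 0 in this comparison. Estimates were below 0 for 12 of 14 efflux partners (median −0.19) and 8 of 11 carriers of dicarboxylates and other small anions (−0.26). They were below 0 for 13 of 20 further organic ion transporters (−0.17) and 12 of 18 proximal tubule markers (−0.09). Genes of carnitine supply and use differed, with 6 of 13 below 0 and a median of 0.01. Because the diet comparison in KO uses the same KO-SFD libraries, low values there and high values on HFD are not separate observations.

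On HFD, 0 of the 8 members were called in KO against WT by either tool beside 0.00665% of all genes called by edgeR, and 0 had an unadjusted p under 0.05, beside 1.65% of all genes. None was without overlap, beside 0.645% of all genes higher and 0.678% lower. Slco4c1 had the estimate farthest from 0 among the tested members, −0.50 ± 0.25, from 38.5, 24.0, 40.0 and 34.7 FPM in WT to 20.3, 29.6, 14.1 and 32.9 FPM in KO, and −0.30 without the KO kidney at 14.1 FPM. The difference of the diet effect between KO and WT was called for 0 of the 8 members by edgeR and DESeq2 and for 0% of all genes by edgeR, while 486 of all genes and 0 of the 8 members had an unadjusted p under 0.05. These differences ran from −0.48 ± 0.35 for Slco4c1 to 0.47 ± 0.29 for Slc22a6, both nearer to 0 without 1 kidney (−0.29 without the KO-HFD kidney at 14.1 FPM of Slco4c1, and 0.29 without the WT-SFD kidney at 1642.01 FPM of Slc22a6), so that a different diet response was not detectable for them at this sample size.

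The members also varied among the mice of a group. On deviations from the group means of log2 CPM over 16 kidneys, 28 pairs without Slc22a8 were tested, and 1 had an adjusted p under 0.05. The pair was Slc22a2 and Slc22a6, with Pearson r = 0.87 (permutation p = 0.00101, adjusted p = 0.0283, 100000 permutations within groups, two-sided) and Spearman rho = 0.91 (permutation p = 5e-05, adjusted p = 0.0014). Without the 2 kidneys farthest from the median of Slc22a2, r was 0.77. Slc22a12 had r = 0.72 and rho = 0.64 with Slc22a2 (permutation test, adjusted p = 0.0972 and 0.106), and r = 0.53 without the 2 kidneys farthest from its own median. The pair with the next smallest adjusted p after the first was Slc22a2 and Slc47a1, with r = 0.68 and rho = 0.69 (permutation test, adjusted p = 0.065 and 0.0819), and r = 0.57 without the 2 kidneys farthest from the median of Slc22a2. Slco4c1 had negative values with Slc22a12 (r = −0.61 and rho = −0.58, permutation test, adjusted p = 0.102 and 0.106) and with Slc22a6 (r = −0.58 and rho = −0.51, adjusted p = 0.161 and 0.27), and without the 2 kidneys farthest from the median of the partner r was −0.56 and −0.44. With Slc22a6, Slc22a12 had r = 0.71 and rho = 0.68 (permutation test, adjusted p = 0.0822 and 0.0819), and r = 0.65 without the 2 kidneys farthest from the median of Slc22a12. The WT-HFD kidney with 24.2 FPM of Slc22a7 was also the lowest of its group in Slc22a2, Slc22a6, Slc22a8, Slc22a12 and Slc47a1. For Slc22a8 it was nearly level with the next kidney, at 588 and 589 FPM. The same kidney was the highest of its group in Slc22a5, at 319 FPM, and neither lowest nor highest in Slc22a4 and Slco4c1. In that kidney the summed proximal tubule markers were 32444 FPM, the lowest of all 16 kidneys, and their most abundant gene Kap, an androgen-regulated tubule protein, was at 7973 FPM. Without Kap its sum was 24471 FPM, above the lowest WT-SFD kidney (23879 FPM) and the lowest KO-SFD kidney (23315 FPM), so the rank rests on Kap. The part of that kidney in the member values was not tested beyond leaving it out.

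As checks of the tissue, the scavenger receptors Lrp2 and Cubn, which define the proximal tubule, were at 1638 ± 248 and 323 ± 30.0 FPM (SD, n = 4) in WT-SFD kidneys. All 18 proximal tubule markers had enough counts to be tested. Their sum was 45761 ± 7543 FPM in WT-SFD, 42214 ± 7405 in WT-HFD, 45684 ± 6151 in KO-SFD and 43066 ± 7240 in KO-HFD kidneys, differences smaller than the SD within groups. Kap alone made up 24.6 to 47% of the sum in a kidney, and without it the KO sum was 26313 ± 2371 FPM on SFD and 30172 ± 6106 FPM on HFD, a difference in the other direction, with overlap. In WT 2 of the 18 rose on HFD, and Slc7a7 was higher without overlap but did not pass the test, at 104 ± 25.9 FPM on SFD and 170 ± 22.5 FPM on HFD (log2 fold change 0.71, adjusted p = 0.0663, edgeR, Benjamini-Hochberg). In KO 4 rose and 0 were called as lower, while 7 of the 18 estimates in KO were below 0. The median log2 fold change of the 18 in KO was 0.17, with 10 at an unadjusted p under 0.05 beside 15.8% of all genes. Without overlap 5 were higher, the 4 called and Pck1. Among all genes, 5.02% were higher and 3.85% lower without overlap in KO. Of the 7 below 0, 3 markers were lower on HFD in KO without overlap but did not pass the test, named after their values were seen: Kap at 19371 ± 4479 and 12894 ± 1441.75 FPM, Napsa, an aspartic protease, at 2772 ± 622 and 1859 ± 148 FPM, and the amino acid carrier Slc7a13 at 1074 ± 27.6 and 803 ± 92.2 FPM on SFD and HFD (SD, n = 4). The early proximal tubule glucose carrier Slc5a2 rose by 1.20 ± 0.21 on the log2 scale in WT (adjusted p = 0.00568) and by 1.54 ± 0.21 in KO (adjusted p = 0.000625, both edgeR, Benjamini-Hochberg). The phosphate carrier Slc34a3 rose by 1.08 ± 0.16 in WT (adjusted p = 0.00190) and by 1.17 ± 0.16 in KO (adjusted p = 0.000827, both edgeR, Benjamini-Hochberg). The amino acid carrier Slc7a7 (log2 fold change 0.98 ± 0.17, adjusted p = 0.00377) and the bicarbonate carrier Slc4a4 (0.75 ± 0.16, adjusted p = 0.0166, both edgeR, Benjamini-Hochberg) rose in KO, and the difference of their diet effects between the genotypes did not pass the test.

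Markers of other cell types were read in the same libraries, and their part in the member values was not tested. Without overlap between the diets, 3.02% of all genes were higher on HFD and 1.99% lower in WT. In KO these shares were 5.02% and 3.85%. The 6 loop of Henle markers gave 0 calls, with a sum of 8859 ± 514 FPM in KO-SFD and 5963 ± 1462 in KO-HFD kidneys (SD, n = 4), led by Umod at 5538 ± 114 and 3668 ± 823 FPM. All 6 estimates were below 0 on HFD in both genotypes, with a median of −0.20 in WT and −0.49 in KO. In the KO kidneys 4 of these loop markers reached an unadjusted p under 0.05, beside 15.8% of all genes. Umod and Ptger3 were lower without overlap. The 6 podocyte markers also gave 0 calls, and their sum of 203 ± 19.1 FPM in KO-SFD kidneys was below the 274 ± 40.0 FPM of WT-SFD kidneys, with Podxl the most abundant. For KO against WT on SFD all 6 estimates were below 0, with a median of −0.47. Of these, 5 had an unadjusted p under 0.05, beside 8.37% of all genes, and 3 were lower without overlap, beside 2.09%. In KO-HFD kidneys the podocyte sum was 271 ± 47.8 FPM, and in the KO diet comparison all 6 estimates were above 0, 5 with an unadjusted p under 0.05 and a median of 0.47, beside 15.8% of all genes at such a p. Of the 11 circadian clock genes 0 were called, but 10 had an unadjusted p under 0.05 for KO against WT on SFD, where Dbp was 44.6 ± 28.1 FPM in WT-SFD and 164 ± 93.6 FPM in KO-SFD kidneys. On HFD in WT 3 of the 11 had such a p beside 7.9% of all genes, with a median of 0.38. On HFD in KO it was 1, with a median of −0.14. Without overlap, Per2 was higher on HFD in WT (log2 fold change 1.20) and Nr1d1 lower in KO (−0.44). The time of day at which each mouse was killed is not given in the sources used here. Of the distal tubule and collecting duct markers, 2 of 11 tested rose in KO on HFD, Slc12a3 by 0.71 ± 0.14 and Pvalb by 1.57 ± 0.25 on the log2 scale, both of the distal convoluted tubule, while 7 of the 11 estimates were below 0, with a median of −0.03. Aqp2, the water channel of the collecting duct, was at 1076 ± 303 FPM in KO-SFD and 775 ± 392 FPM in KO-HFD kidneys. In WT 0 of the 11 were called, 9 estimates were below 0 with a median of −0.31, and 3 had an unadjusted p under 0.05 beside 7.9% of all genes. Of these markers Atp6v0d2, at 23.9 ± 4.17 and 16.3 ± 1.38 FPM, and Scnn1g, at 34.9 ± 2.82 and 26.7 ± 2.24 FPM, were lower on HFD in WT without overlap. Endothelial, smooth muscle, leucocyte and tubule injury markers gave 0 calls in all 5 comparisons, as did the 6 androgen-responsive genes. On HFD all 6 androgen-responsive estimates were below 0 in WT, with a median of −0.25. In KO 5 of the 6 were below 0, with a median of −0.29, and Kap was lower without overlap. In each genotype 1 of the 6 had an unadjusted p under 0.05, beside 7.9% of all genes in WT and 15.8% in KO. Of the injury markers, Vcam1 was higher on HFD in WT (log2 fold change 0.61) and Spp1 lower in KO (−0.45) without overlap. In KO 3 of the 6 tested injury markers had an unadjusted p under 0.05, beside 15.8% of all genes. The leucocyte markers had a median of 0.35 on HFD in WT and 0.30 in KO, with 5 of 6 estimates above 0 in each. Of 6 adipocyte markers 1 rose in KO on HFD, Lep, the gene of leptin, from 0.182 ± 0.0299 to 5.96 ± 7.47 FPM. The KO-HFD mean was raised by 1 kidney at 17.2 FPM, and the KO-HFD median was 2.48 FPM. Lep was also higher on HFD in WT without overlap, at 0.616 ± 0.698 and 5.01 ± 2.05 FPM. That difference did not pass the test (adjusted p = 0.122, edgeR, Benjamini-Hochberg). The other 5 had estimates below 0 in KO and did not pass the test, with a list median of −1.02. The most abundant, Fabp4, was at 142 ± 96.1 FPM in KO-SFD and 75.2 ± 18.1 FPM in KO-HFD kidneys. The adrenal markers summed to at most 0.767 FPM, and none had enough counts to be tested. The markers Hsd11b2, Cdh5, Cnn1, Cd3e and Timp1 were listed at 0 in all 16 kidneys. In the table used here every gene of chromosomes 9, X, Y and MT was at 0, as were Hsd11b2 and Cdh5 on chromosome 8, where 867 of 1749 genes had a count, so these 0 values are not read as absence of the RNA.

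The genes around the members were read from lists chosen by function. Among all genes, 0.911% were called on HFD in WT and 2.3% in KO. Without overlap between the diets, 3.02% of all genes were higher on HFD and 1.99% lower in WT. In KO these shares were 5.02% and 3.85%. Of 29 further organic ion transporters 20 were tested, and 1 was called as higher on HFD in both genotypes while none was called as lower. It was Slc22a29 (chr19:8160165-8218900), which went from 2.22 ± 0.655 FPM to 6.88 ± 0.803 FPM in WT (SD, n = 4) and from 2.74 ± 0.548 to 8.12 ± 2.2 FPM in KO. The WT log2 fold change was 1.62 ± 0.24 with an adjusted p of 0.00146, and the KO value was 1.57 ± 0.23 with an adjusted p of 0.00121 (edgeR, Benjamini-Hochberg). Slc22a29 lies in a run of similar Slc22a genes on chromosome 19, so that the assignment of its reads is uncertain, and its level is low beside those of Slc22a8 and Slc22a6. Slc22a19 (chr19:7673061-7711310) and Slc22a26 (chr19:7781041-7802667), given next, lie in the same run, so their reads have the same limit. Without overlap but without passing the test, 2 of the 20 were lower on HFD in WT, 1 was lower in KO and 1 was higher in KO, named here after their values were seen. Slc22a26 was at 32.5 ± 5.07 and 15.2 ± 7.29 FPM in WT (adjusted p = 0.168, edgeR, Benjamini-Hochberg) and at 23.7 ± 5.52 and 10.9 ± 4.45 FPM in KO (adjusted p = 0.0866), on SFD and HFD. Slc22a19 was at 142 ± 24.3 and 89.6 ± 24.6 FPM in WT (adjusted p = 0.288, edgeR, Benjamini-Hochberg). Slc22a23 was the higher one, at 50.0 ± 9.92 and 83.5 ± 11.04 FPM in KO (adjusted p = 0.0602, edgeR, Benjamini-Hochberg). The median log2 fold change of the 20 was −0.05 in WT and −0.06 in KO, beside 0.00 for all genes in both.

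Of 14 efflux partners tested, 2 rose in each genotype and none fell. Abcb1b, a P-glycoprotein that exports drugs, went from 12.2 ± 1.93 to 33.4 ± 10.99 FPM in WT (log2 fold change 1.46 ± 0.22, adjusted p = 0.00190) and from 11.8 ± 2.01 to 34.0 ± 7.44 FPM in KO (1.52 ± 0.22, adjusted p = 0.000993, both edgeR, Benjamini-Hochberg). Slc17a4, a phosphate transporter relative that carries organic anions, went from 3.67 ± 0.309 to 8.38 ± 2.03 FPM in WT (1.19 ± 0.21, adjusted p = 0.00760) and from 3.17 ± 0.492 to 9.03 ± 2.51 FPM in KO (1.51 ± 0.21, adjusted p = 0.000827, both edgeR, Benjamini-Hochberg). All 4 HFD kidneys lay above all 4 SFD kidneys for both genes in both genotypes. Without passing the test, Abcc10 was lower in WT and Abcc4 higher in KO without overlap, by log2 fold changes of −0.21 and 0.68. Neither Abcb1b nor Slc17a4 passed the test for a diet effect that differed between WT and KO.

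Of 11 tested carriers of dicarboxylates, monocarboxylates, sulphate and other small anions, 0 were called in WT and 2 rose in KO. The sulphate carrier Slc13a1 went from 135 ± 18.2 to 371 ± 81.1 FPM in KO (1.46 ± 0.25, adjusted p = 0.00404, edgeR, Benjamini-Hochberg) and was 216 ± 99.8 and 310 ± 56.8 FPM in WT. The lactate carrier Slc5a12 went from 74.4 ± 12.6 to 163 ± 44.0 FPM in KO (1.13 ± 0.26, adjusted p = 0.0266, edgeR, Benjamini-Hochberg) and was 89.2 ± 38.9 and 149 ± 34.5 FPM in WT. In KO 3 more were without overlap but did not pass the test, named after their values were seen. The dicarboxylate carrier Slc13a3 was at 549 ± 68.2 FPM on SFD and 912 ± 222 FPM on HFD, while the monocarboxylate carriers Slc5a8, at 279 ± 17.8 and 225 ± 14.7 FPM, and Slc16a7, at 80.6 ± 10.4 and 50.4 ± 14.99 FPM, were lower on HFD. The median of the list was 0.06 in WT and 0.33 in KO, with 7 estimates above and 4 below 0 in each. An unadjusted p under 0.05 was reached by 8 of the 11 in KO, beside 15.8% of all genes, and by 1 in WT, beside 7.9%. The genotype difference of these diet effects did not pass the test.

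Of 13 tested genes of carnitine supply and use, 1 fell in KO and 0 were called in WT. Slc25a29, a mitochondrial carrier of basic amino acids, went from 11.9 ± 1.28 to 7.22 ± 0.726 FPM in KO, a log2 fold change of −0.72 ± 0.13 (adjusted p = 0.00466, edgeR, Benjamini-Hochberg), beside 9.01 ± 0.861 and 7.68 ± 0.983 FPM in WT. Without overlap but without passing the test, Acadm was lower on HFD in both genotypes, by a log2 fold change of −0.46 in each, and Aldh9a1 in WT, by −0.28. The 7 tested genes of urate handling and the 17 tested scaffolds and transcription factors, among them the HNF1 and HNF4 factors, gave 0 calls in any of the 5 comparisons, although 4 of the latter were higher on HFD without overlap, Ppara and Prlr in KO and Esr1 and Nfe2l2 in WT. In the genotype comparisons and for the difference of the diet effects, 0 genes of these 6 lists were called. Without overlap on SFD, Slco2b1 and Nfe2l2 were higher in KO than in WT, and Slco1a6, Pdzk1 and Rxra were lower. Among all genes, 1.9% were higher and 2.09% lower in this way. On HFD, Hadhb was higher and Slc5a8 lower in KO without overlap, beside 0.645% and 0.678% of all genes. These genes were named after their values were seen.

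**Figure D4:**
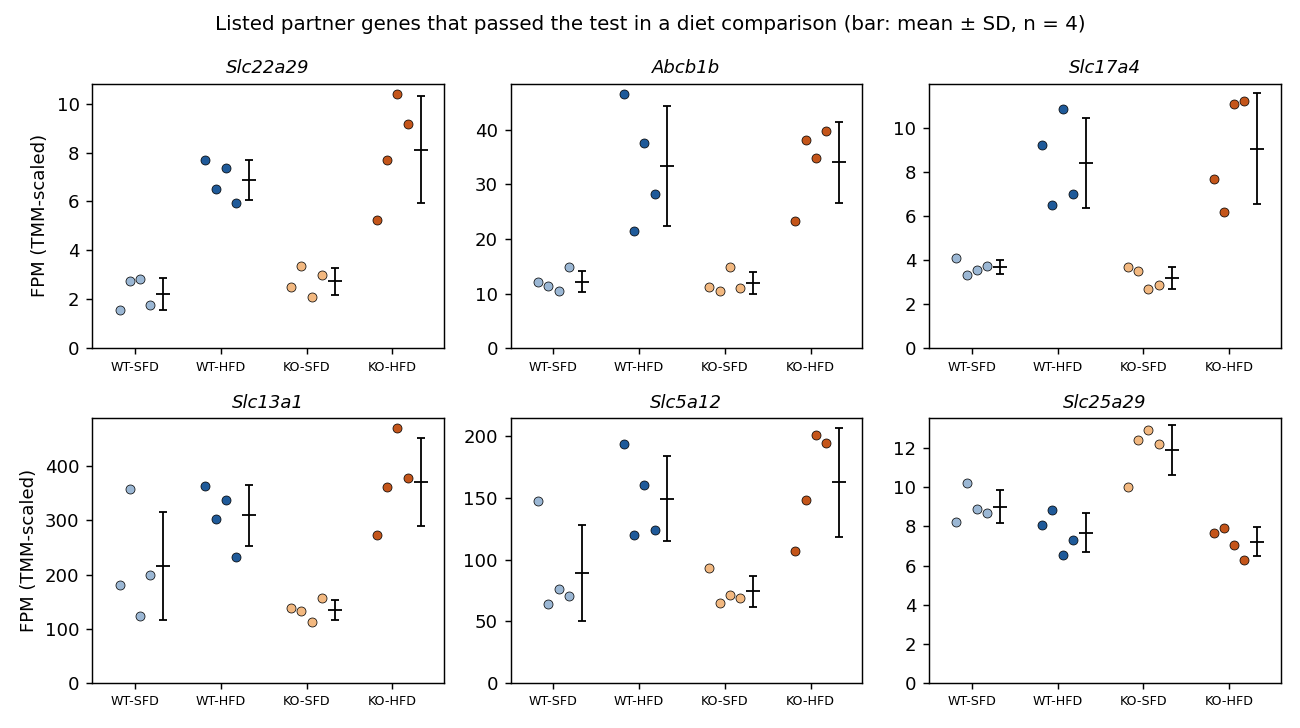
FPM of the 6 listed partner genes that passed the test in a diet comparison, by genotype and diet; points are mice (n = 4 per group) and bars the mean ± SD. Slc22a29, Abcb1b and Slc17a4 are higher on HFD in WT and KO without overlap, Slc13a1 and Slc5a12 passed the test in KO, and Slc25a29 is lower on HFD in KO.

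The genes whose pattern was most like that of Slc22a8 were picked by Pearson correlation of log2 CPM over the 16 kidneys, which all share the diet difference, so no p is given. They were the transcription factor gene Etv4 (r = 0.94, and 0.97 over the 8 WT kidneys), the endocytic adaptor gene Dab2 (0.94 and 0.79), Ttr, which encodes the thyroid hormone carrier transthyretin (0.94 and 0.89), Pmepa1, a target of TGF-β signalling (0.94 and 0.93), and the carboxylesterase gene Ces1g (0.94 and 0.71). Etv4 was 1.37 ± 0.668 FPM in WT-SFD, 4.37 ± 1.11 in WT-HFD, 0.582 ± 0.212 in KO-SFD and 7.27 ± 2.45 in KO-HFD kidneys (SD, n = 4). All 5 were lowest on average in KO-SFD and highest in KO-HFD kidneys, as the choice by correlation over these same kidneys favours. On deviations from the group means, where the diet difference is removed, r was 0.59 for Etv4, 0.69 for Dab2, 0.79 for Ttr, 0.76 for Pmepa1 and 0.66 for Ces1g.

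**Figure D5:**
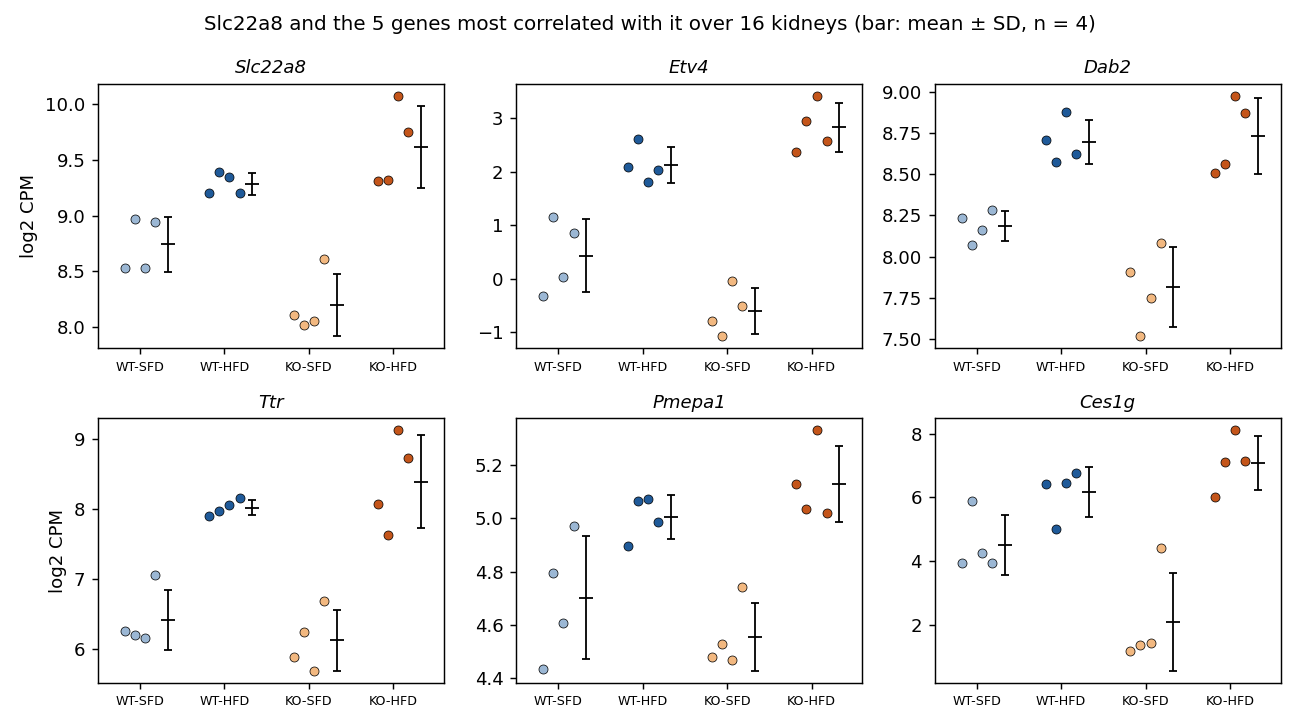
Log2 CPM of Slc22a8 and of the 5 genes most correlated with it over 16 kidneys, by genotype and diet; points are mice (n = 4 per group) and bars the mean ± SD. In each panel the KO-SFD kidneys have the lowest mean and the KO-HFD kidneys the highest.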

How the data were processed

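RNA of 16 kidneys, each from a separate mouse, was sequenced by a company, and that of 14 aortae at a university core unit; 3 mice gave both tissues. The authors had the reads aligned to GRCm38/mm10 with TopHat, counted per gene with featureCounts and deposited as raw counts without normalisation; cutadapt, TopHat, featureCounts and mm10 are also named in the submitters' processing notes. Kidney totals were 16354880 to 28331314 counts (median 19544128); the genes of chromosomes 9, X, Y and MT, all at 0 in the table used here, are in none of these totals, and so in no FPM, FPKM or share of tested genes. Groups followed the labels. The counts were fitted in R 4.3.3 with edgeR 4.0.16 (TMM, filterByExpr, glmQLFit and glmQLFTest, 1 coefficient per group, all 16 kidneys together), with p-values adjusted by the Benjamini-Hochberg method over 15034 genes and called under 0.05. SE is the log2 fold change divided by the root of F. The paper's limit of 0.001, DESeq2 1.42.0, other scalings and filters and leaving out each kidney were alternatives. FPKM used GENCODE vM21 exon lengths. No 2 kidneys were copies (smallest chi-square per gene 9.21 over 120 pairs). The script was tested on simulated data.

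Members, lists and rules were chosen with earlier results of these data known. Named are the members, Egfr, up to 4 called genes per list, comparison and direction whose groups do not overlap, markers given as levels, and the 5 genes most correlated with Slc22a8. Of the entries in all lists, 16 had no count in any kidney, most of them on chromosomes 9 and X, and Adgre1 was not found by symbol.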

Additional observations from a re-analysis of the deposited data

Results flagged for a closer look

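In 36 groups of 4 kidneys (9 members, 4 groups each), 5 had a kidney far from the other 3 by Dixon's 95% limit, where chance flags about 1 in 20. These were the highest WT-SFD kidney for Slc22a6 (1642.01 FPM), the highest WT-SFD kidney for Slco4c1 (39.2 FPM), the lowest WT-SFD kidney for Slc22a5 (208 FPM), the highest WT-HFD kidney for Slc22a4 (124 FPM) and the highest KO-SFD kidney for Slc22a8 (391 FPM). They came from 5 different mice. Without the KO-SFD kidney at 391 FPM, the log2 fold change of Slc22a8 on HFD in KO was 1.60 in place of 1.44. Without the WT-SFD kidney at 1642.01 FPM, that of Slc22a6 on HFD in WT was −0.12 in place of −0.30.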

How the results depend on the processing

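No paired analysis was possible because each mouse carries its own number and the groups share none. Under DESeq2, RLE factors, library totals, no low count filter, a limit of 0.001 and fits of only the groups compared, no member's log2 fold change changed sign, and no member count moved except that DESeq2 called 2 members on HFD in KO (Slc22a8 and Slc22a5, 0.44). Over the 6 lists of partner genes, markers not counted, DESeq2 called 5 genes in WT in place of 3 and 13 in KO in place of 6. For all genes, DESeq2 called 263 in WT, 695 in KO, 26 for KO against WT on SFD and 1 for the difference of the diet effects, the limit of 0.001 left 23 in WT and 48 in KO, a fit of only the KO groups called 228 in KO, and leaving out a kidney gave 92 to 136 in WT and 196 to 403 in KO. Leaving out each kidney in turn changed no member count.

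It changed the sign of small log2 fold changes that were not called, in 24 of 720 refits. On HFD in WT the values ran from −0.026 to 0.12 for Slc47a1 and from −0.0042 to 0.15 for Slc22a5, and on HFD in KO from −0.013 to 0.28 for Slc22a6. For KO against WT on SFD they ran from −0.17 to 0.15 for Slco4c1. For KO against WT on HFD they ran from −0.024 to 0.11 for Slc47a1, −0.069 to 0.11 for Slc22a5, −0.17 to 0.048 for Slc22a2, −0.25 to 0.39 for Slc22a7, −0.16 to 0.077 for Slc22a12 and −0.025 to 0.27 for Slc22a6. For the difference of the diet effects they ran from −0.048 to 0.17 for Slc22a2 and −0.16 to 0.49 for Slc22a7. The cause was not tested.

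With 4 mice per group the median SE of a log2 fold change in WT was 0.17 over all genes. The lowest count of a member in a kidney was 223.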
